A study of Mus musculus with 2 samples.

Results

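The genes described here form the p38 stress kinase pathway: the 4 p38 MAP kinases (Mapk11, Mapk12, Mapk13 and Mapk14), 4 kinases upstream of them (Map2k3, Map2k6, Map2k4 and Map3k5) and 2 kinases that p38 switches on (Mapkapk2 and Mapkapk3). They were chosen by name, and every probe set assigned to 1 of these symbols and to no other gene was taken, which gave 21 probe sets of the 34945 that carried 1 gene, and 10 genes of 18193. The study hybridised total RNA of haematopoietic stem cells to Affymetrix expression arrays. There was 1 array for mice lacking Wip1, the phosphatase encoded by Ppm1d, and 1 array for wild-type mice. Both samples came from mice aged 3 months. The knockout allele, the strain, the sex, the sort gates and the number of animals pooled were not stated in the labels.

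Kinases of the p38 family work at the end of a relay. A MAP3 kinase such as ASK1, the product of Map3k5, phosphorylates a MAP2 kinase, which in turn phosphorylates p38 on a threonine and a tyrosine in its activation loop. Active p38 then phosphorylates the kinases MK2 and MK3 and several transcription factors. Wip1 removes the phosphate from that threonine and so turns p38 off. In mouse stem cells, p38 is known for its activation by reactive oxygen species and its part in stem cell exhaustion. The arrays measured transcripts, and the phosphorylation through which Wip1 acts on p38 was not measured.

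Among the p38 kinases, only Mapk14 was bright in the stem cells. It had a probe set above the 75th percentile of the array in both samples, while Mapk11 and Mapk13 lay under the floor in both and Mapk12 lay just above it. The upstream kinases and both effectors were above the floor in both samples. None of the 8 detected members differed by 1.5-fold by its brightest probe set between knockout and wild type. Only 3.85% of all detected genes did, and 8 genes are too few to set against that share. The floor was each array's median intensity over all probe sets (25.9 in the knockout and 25.2 in the wild type), and a gene was called detected when its brightest probe set exceeded it on at least 1 array. The 75th percentiles were 113 in the knockout and 111 in the wild type.

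Neither mark proves expression by itself. Of 37 measured genes of non-blood tissues, 8 lay above the floor (21.6%), against 62.9% of all genes. None of the 37 lay above the 75th percentile in both samples, which allows a share of up to 8.11%, counting error only. Of the p38 pathway, 8 of 10 genes lay above the floor in both samples and 6 of them above the 75th percentile in both. Of all 18193 genes, 10957 lay above the floor in both samples and 6692 above the 75th percentile in both. Intensities of different probe sets depend on their probes as well as on RNA, so the genes are not ranked against each other. In bulk RNA, fewer cells carrying a transcript and less of it per cell cannot be told apart.

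Mapk14 encodes p38 alpha, the p38 kinase present in most cell types, and 6 probe sets measured it. The brightest, 1416703_at, had an intensity of 956 in the knockout and 980 in the wild type, a log2 difference (knockout minus wild type, after centring the arrays) of -0.02. These values are far above the floor and nearly equal. Probe set 1459617_at had 125 in the knockout and 115 in the wild type, and 1416704_at had 69.2 in the knockout and 64.8 in the wild type. Probe set 1451927_a_at had 33.8 in the knockout and 35.9 in the wild type. These 4 probe sets differed by between -0.07 and 0.13, less than 0.21, the pooled SD among probe sets that measure the same gene, taken over 4761 genes.

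The other 2 probe sets of Mapk14 were higher in the knockout. Probe set 1442364_at had an intensity of 135 in the knockout and 97.4 in the wild type, a log2 difference of 0.49 and the largest among the members' probe sets. Probe set 1426104_at had 26.4 in the knockout, just over the floor, and 15.1 in the wild type, under it, so that its difference is a lower bound of 0.08. The 6 log2 differences of Mapk14 had an SD of 0.20 and a median of 0.09. The transcripts of Mapk14 that each probe set reads were not stated, and the probe sets were not assigned to splice forms.

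The remaining p38 kinases were dim in both samples. Mapk11, which encodes p38 beta, the closest relative of p38 alpha, had 24.7 in the knockout and 23.6 in the wild type in its brighter probe set, and 11.5 in the knockout and 10.3 in the wild type in the other. Mapk13, which encodes p38 delta, had 20.1 in the knockout and 15.5 in the wild type by its only probe set. All of these lie under the floor, so no difference is given for either gene. Mapk12, which encodes p38 gamma, a form known from skeletal muscle, had 36.8 in the knockout and 28.7 in the wild type in 1449283_a_at, a log2 difference of 0.37. Its other probe set, 1447823_x_at, held the same value of 8.24 on both arrays. The difference of Mapk12 was the largest of any member by its brightest probe set. It rests on values close to the floor, and 12.4% of all detected genes differed by at least as much in either direction. At a smaller size, a log2 difference of 0.32, Mapk12 was the only one of 8 detected members counted, where 17.3% of all detected genes were.

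**Figure D1:**
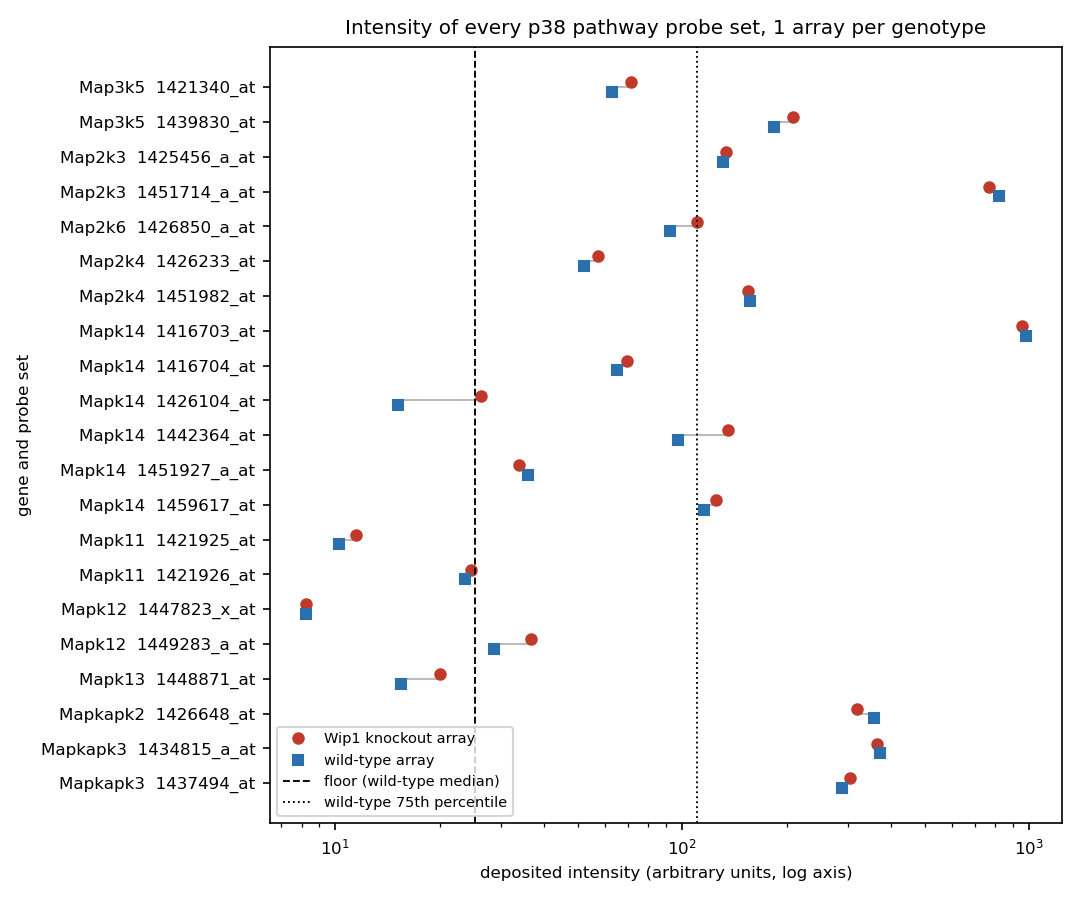
Deposited intensity (arbitrary units, log axis) of each of the 21 probe sets of p38 pathway genes on the Wip1 knockout array (red circles) and the wild-type array (blue squares), with the wild-type floor of 25.2 (dashed) and 75th percentile of 111 (dotted). Mapk14 has probe sets on both sides of the dotted line, while those of Mapk11 and Mapk13 lie left of the dashed line in both samples.

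The 4 p38 genes stand in 2 pairs of neighbours. Mapk14 and Mapk13 follow one another on mouse chromosome 17, and Mapk12 and Mapk11 on chromosome 15, each pair next to each other in the order of protein-coding genes in the RefSeq annotation of GRCm38.p6. The start regions of Mapk14 and Mapk13 are shown because these adjacent genes differed in detection, with Mapk14 bright and Mapk13 under the floor in both samples. Each window runs from 250 bases before to 50 bases after an annotated start, 5′ to 3′ on the + strand of GRCm38.p6, from RefSeq, with CpG dinucleotides in capitals. The Mapk14 window is chr17:28691092-28691391 and the Mapk13 window is chr17:28769067-28769366.
Mapk14: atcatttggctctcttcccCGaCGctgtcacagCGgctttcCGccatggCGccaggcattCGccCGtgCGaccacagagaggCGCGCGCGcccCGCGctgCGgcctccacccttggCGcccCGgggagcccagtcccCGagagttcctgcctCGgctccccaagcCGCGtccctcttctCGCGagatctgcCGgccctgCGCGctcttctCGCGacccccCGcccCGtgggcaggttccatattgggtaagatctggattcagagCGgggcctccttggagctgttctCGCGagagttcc
Mapk13: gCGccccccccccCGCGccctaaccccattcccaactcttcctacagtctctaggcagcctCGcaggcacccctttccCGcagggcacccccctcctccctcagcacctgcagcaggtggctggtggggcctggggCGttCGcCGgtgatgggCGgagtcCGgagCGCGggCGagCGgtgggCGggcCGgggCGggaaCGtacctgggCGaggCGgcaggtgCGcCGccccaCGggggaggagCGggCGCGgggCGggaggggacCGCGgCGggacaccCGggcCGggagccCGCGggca

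Both windows are rich in CpG. The Mapk14 window holds 33 CpG, 0.956 of the number its C and G content would give, and the Mapk13 window holds 34, a ratio of 0.746. The second annotated start of Mapk14 has a ratio of 0.968. The windows of Mapk11 (0.672) and Mapk12 (0.442) are lower. A ratio of at least 0.6 was found in 35.8% of all 32851 windows of this length, in 68.1% of windows of detected genes and in 29.0% of windows of genes under the floor. Mapk13 and Mapk11 therefore were under the floor with windows above that ratio, and Mapk12 was detected with a window below it. The motif TATAAA, searched on both strands, was in 0 of the 5 windows of the p38 kinase genes and in 1 of the 15 windows of all members (6.67%), that of the third annotated start of Map2k6. It was in 7.44% of windows of detected genes and in 13.6% of all windows. These counts describe the sequences only.

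Upstream of p38, Map3k5 was slightly higher in the knockout in both of its probe sets. ASK1, which it encodes, is a stress-responsive MAP3 kinase held inactive by reduced thioredoxin. Probe set 1439830_at had an intensity of 209 in the knockout and 184 in the wild type, a log2 difference of 0.20. Probe set 1421340_at had 71.4 in the knockout and 62.6 in the wild type, also 0.20. The probe sets thus gave the same size, which is smaller than the SD of 0.21 between probe sets. A difference at least as large was found in 37.8% of all detected genes.

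The MAP2 kinases that act on p38 were all detected. Map2k3 encodes MKK3, which is dedicated to p38, and had 768 in the knockout and 817 in the wild type in its brighter probe set, 1451714_a_at (log2 difference -0.08). Its other probe set, 1425456_a_at, had 134 in the knockout and 131 in the wild type (0.04). The direction thus differed between its probe sets, and neither size passed the SD between probe sets. Map2k6 encodes MKK6, the other p38-specific kinase, and had 110 in the knockout and 92.2 in the wild type by its only probe set, a log2 difference of 0.27, or 1.21-fold. Both values lie under the 75th percentile, and 23.7% of detected genes differed by at least as much. Map2k4 encodes MKK4, which activates JNK and can also phosphorylate p38. It had 155 in the knockout and 157 in the wild type in 1451982_at, a log2 difference of -0.0052, and 57.3 in the knockout and 52.1 in the wild type in 1426233_at (0.15). Map2k3, Map2k4 and Map2k6 lie on chromosome 11, as does Ppm1d.

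Both effector kinases were bright in both samples. Mapkapk2 encodes MK2, which phosphorylates RNA-binding proteins and so steadies inflammatory transcripts, and it had 319 in the knockout and 357 in the wild type by its only probe set, a log2 difference of -0.15. It was the lowest difference of any member. Mapkapk3 encodes the related kinase MK3 and had 364 in the knockout and 373 in the wild type in 1434815_a_at (-0.02). In 1437494_at it had 305 in the knockout and 289 in the wild type (0.09). Neither gene passed the SD between probe sets.

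**Figure D2:**
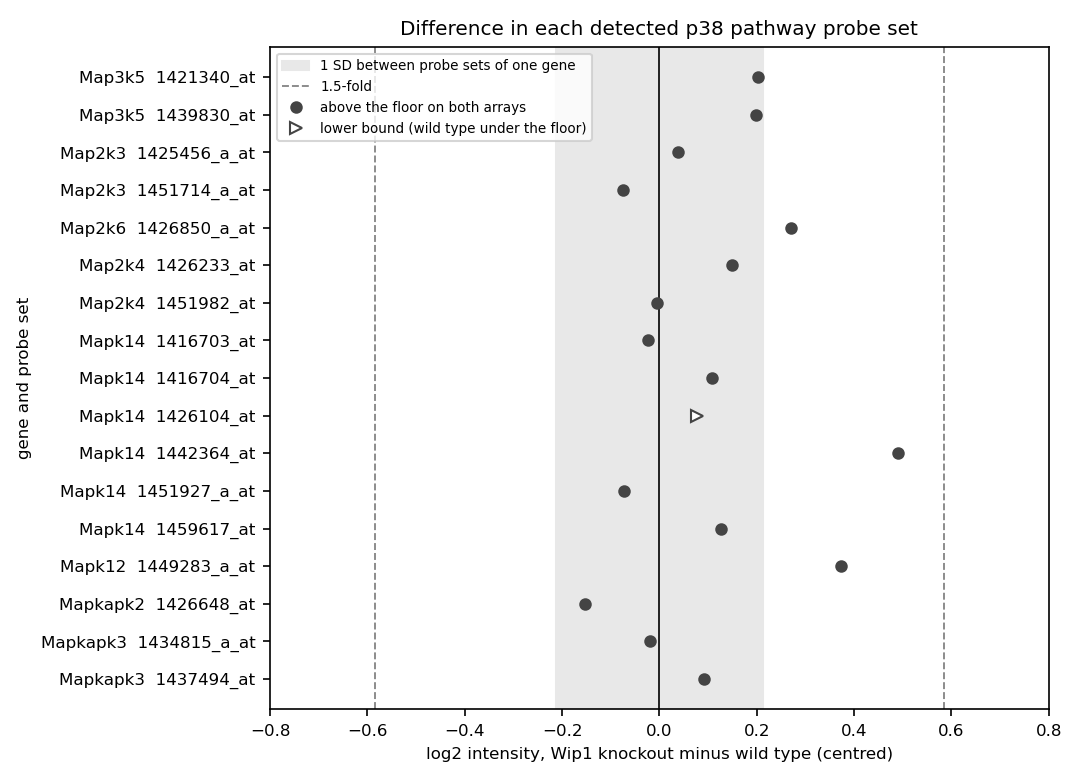
Log2 intensity in the Wip1 knockout minus wild type for the 17 detected probe sets of p38 pathway genes, with a band of 1 SD between probe sets of one gene (0.21) and dashed lines at 1.5-fold. Of the 17 points, 3 lie outside the band (Mapk14 1442364_at, Mapk12 and Map2k6, all to the right), and the open triangle is a lower bound.

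With 1 array per genotype no test was possible, and the members are read against all detected genes. At 2-fold, 0 of 8 detected members differed, where 0.664% of 11440 detected genes did. At 1.5-fold the count was again 0 of 8, against 3.85%, and 8 genes are too few to set against either share. Members past the SD between probe sets numbered 2 of 8, Mapk12 and Map2k6, against 34.7% of detected genes, so the share was not above the background. By brightest probe set 3 members were higher in the knockout (Mapk12, Map2k6 and Map3k5) and 5 lower, where 5724 of the 11440 detected genes were higher and 5716 lower. The median difference was -0.01 over the 8 members and 0.0002 over all detected genes. Sign and split turned with the normalization, to 0.02 with 6 members higher and 2 lower after quantile normalization, and to 0.01 with 5 higher and 3 lower after loess. Over detected probe sets, 11 of 17 were higher in the knockout, against 50.6% of all detected gene probe sets, with a median of 0.09 against 0.0033. Of the 16 above the floor on both arrays, 0 reached 1.5-fold, where 4.52% of all detected gene probe sets did, and 3 passed the SD, where 36.9% did. These background shares are over 19906 probe sets, of which 18758 lay above the floor on both arrays. The lower bound of Mapk14 1426104_at does not place it on either side of 1.5-fold or of the SD. Probe sets of one gene share its RNA and are not replicates.

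**Figure D3:**
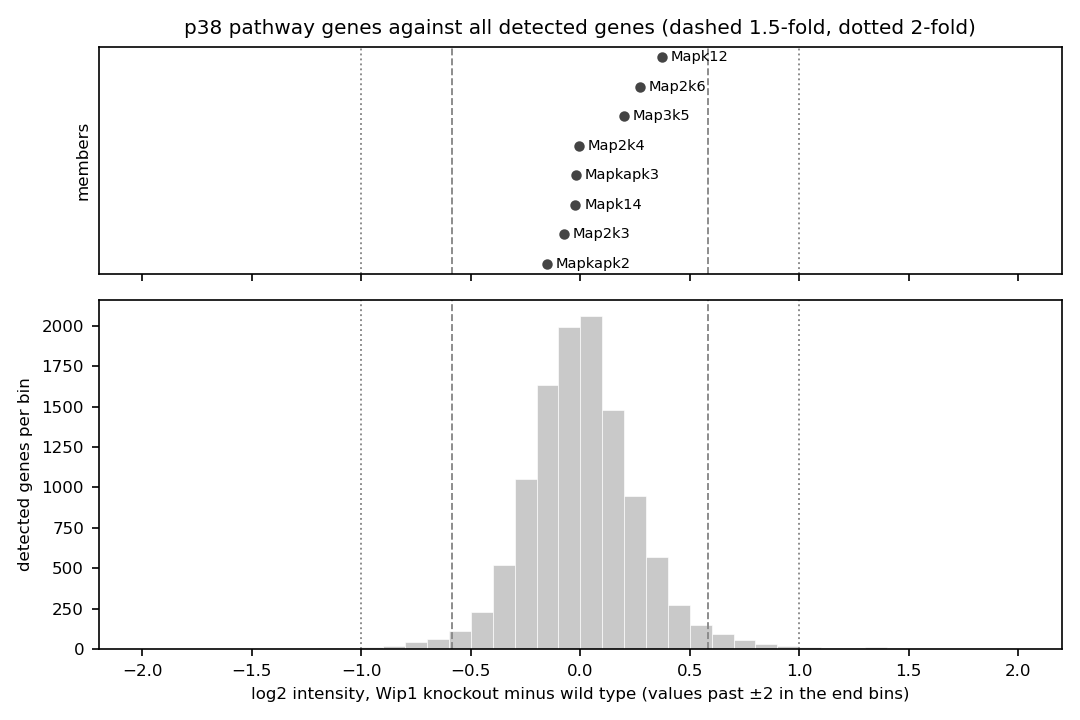
Log2 intensity in the Wip1 knockout minus wild type for the 8 detected p38 pathway genes (top, brightest probe set of each) above the number of detected genes per bin of 0.1 (bottom, 11440 genes). All 8 members lie between the dashed lines at 1.5-fold, from -0.15 for Mapkapk2 to 0.37 for Mapk12.

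The wider pathway was described from lists. Of 25 measured MAP3 kinases, TAK1 adaptors and Gadd45 genes, all were detected and the median difference was 0.03. As deposited, by brightest probe set, 13 were higher and 11 lower in the knockout and Map3k14 had the same value on both arrays. After centring and the floor 16 counted as higher and 9 as lower. The other detected probe set of Map3k14 had 45.5 in the knockout and 29.0 in the wild type (0.67), past 1.5-fold. By brightest probe set, Map3k6 was the only one of the 25 past 1.5-fold, a share near the 3.85% of all detected genes. Map3k6 encodes ASK2, a partner of ASK1. Its single probe set had 27.2 in the knockout, just above the floor, and 52.2 in the wild type, a log2 difference of -0.93. Map3k2, encoding MEKK2, had 67.8 in the knockout and 52.3 in the wild type in its brightest probe set (0.39). Its other detected probe set held the same value of 46.2 on both arrays. Map3k1, encoding MEKK1, had 81.4 in the knockout and 65.6 in the wild type (0.32). The other effector kinases of p38 had 0 of 4 detected genes past 1.5-fold, too few to set against that share, with a median of 0.03. They included Mknk1, a kinase of the translation factor eIF4E (0.18), Mapkapk5 (-0.09) and Rps6ka5, which encodes the nuclear kinase MSK1 (0.08). The other detected probe set of Rps6ka5 went the opposite way, at -0.24.

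Phosphatases that act on p38 went both ways. Of 10 detected genes 3 were higher and 7 lower in the knockout, with a median of -0.17, where all detected genes split evenly (5724 and 5716). Past 1.5-fold were 2 of the 10, against 3.85% of all detected genes. Dusp2, a nuclear MAP kinase phosphatase, had 5775 in the knockout and 3569 in the wild type by its only probe set (0.71). Dusp8, a phosphatase of p38 and JNK, had 76.0 in the knockout and 156 in the wild type in its brightest probe set (-1.03). Its other probe sets were at -0.26 and -0.09, so the genotypes differed past 2-fold in 1 of 3. Dusp10, which also acts on p38 and JNK, had 108 in the knockout and 163 in the wild type (-0.58), just short of 1.5-fold, and at -0.59 without centring or after loess it was just past it. Ppm1d itself, the targeted gene, had 160 in the knockout and 167 in the wild type in one probe set, and 59.0 in the knockout and 55.6 in the wild type in the other. Whether these probe sets lie in the deleted part was not stated, so they check nothing about the genotype.

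Substrates and downstream transcripts gave no common direction. Of 16 detected substrates of p38 and MK2, 8 were higher and 8 lower in the knockout, with a median of 0.01. By brightest probe set, Ddit3, a transcription factor of the stress response, was the only one of the 16 past 1.5-fold. Of all detected genes 3.85% were. Ddit3 had 361 in the knockout and 777 in the wild type in its brightest probe set (-1.09). Its other probe set went the opposite way, with 393 in the knockout and 250 in the wild type (0.66). Pabpc1, of the same list, was at -0.03 in its brightest probe set. The other probe set of Pabpc1 had 1191 in the knockout and 524 in the wild type (1.20), past 1.5-fold. The median over 2 probe sets was -0.21 for Ddit3 and 0.58 for Pabpc1. Elk1, an ETS transcription factor, was at -0.24. Mef2c, a transcription factor that p38 phosphorylates, was at 0.23, with its 5 probe sets between 0.03 and 0.23. Of 8 detected transcripts that p38 and MK2 are known to steady, 5 were higher and 3 lower by brightest probe set. Their median was 0.13. None was past 1.5-fold, and 8 genes are too few to set against the 3.85%. These transcripts included the growth factor gene Vegfa (-0.35), the interleukin gene Il1b (0.31) and Ptgs2, which encodes cyclooxygenase-2 (0.31). Il1b had 41.0 in the knockout and 33.3 in the wild type, close to the floor. The other probe set of Vegfa held the same value of 95.9 on both arrays. Cxcl1 counted as higher by its brightest probe set (0.21), while its other probe sets were lower, at -0.16 and -0.21. Il6 and Csf2, of the same list, were under the floor in both samples.

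The JNK and ERK modules had 6 detected genes each. None was past 1.5-fold by its brightest probe set, where 3.85% of all detected genes were, a share that leaves few or none among so few genes. Of the 6 detected genes of the JNK module 5 were higher and 1 lower in the knockout, with a median of 0.13. The scaffold gene Mapk8ip3 had 119 in the knockout and 87.7 in the wild type (0.45), Mapk8ip2 was at -0.23 and the kinase gene Mapk9 at 0.21. Of 9 listed genes of the ERK modules 6 were measured, and of these 6 detected genes 4 were higher and 2 lower, with a median of 0.04. Araf, a RAF kinase gene, was at -0.27 in its brightest probe set, while its 3 other detected probe sets were higher in the knockout, between 0.55 and 0.56. Mapk7, encoding ERK5, had 31.4 in the knockout and 37.2 in the wild type (-0.23), close to the floor. Its activator gene Map2k5 was at 0.18 in its brightest probe set. The detected probe sets of Map2k5 ran from -0.37 to 0.395.

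**Figure D4:**
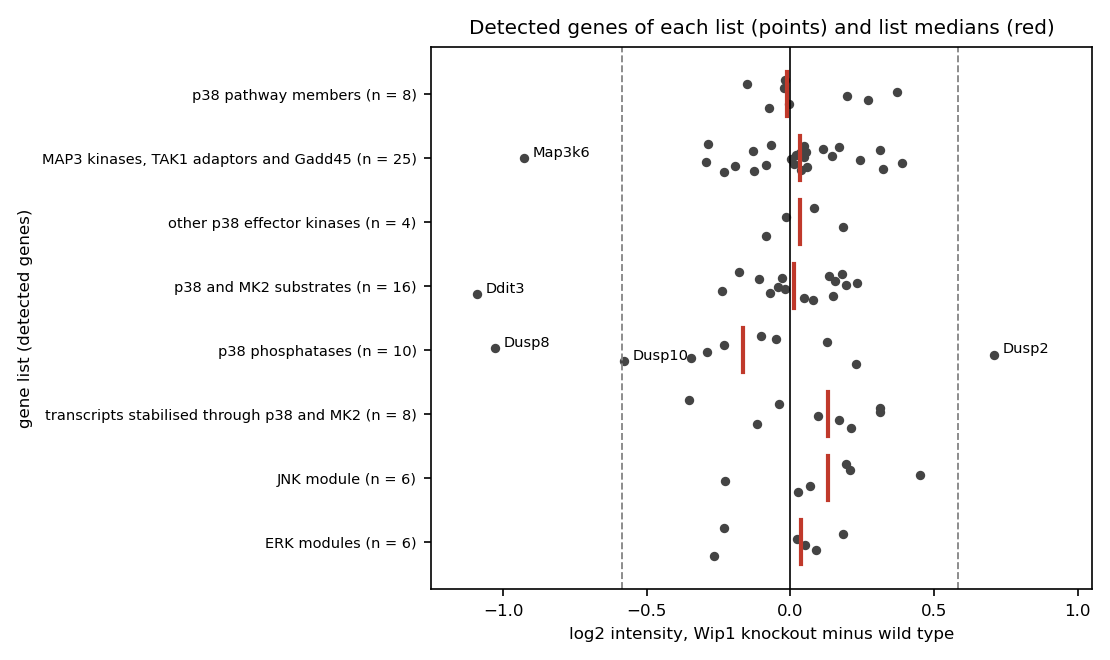
Log2 intensity in the Wip1 knockout minus wild type for the detected genes of the p38 pathway and of 7 lists of related genes (points, brightest probe set per gene), with list medians in red and dashed lines at 1.5-fold. Past the dashed lines are Map3k6, Ddit3 and Dusp8 on the lower side and Dusp2 on the higher side.

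The stem cell label was checked against marker genes. All 11 measured stem cell markers were above the floor in both samples, and 10 of them above the 75th percentile in both. Past 1.5-fold by brightest probe set were 3 of the 11, Hlf (0.70), Slamf1 (-0.66) and Tek (-0.59), against 3.85% of all detected genes. The median over its 3 detected probe sets was -0.29 for Slamf1, short of 1.5-fold. Meis1, at -0.20 by its brightest probe set, had a median of 0.81 over 2. Markers of other blood cells were present too, with 6 of 6 neutrophil markers and 4 of 8 monocyte, macrophage and dendritic markers above the 75th percentile in both samples. The summed intensity of the neutrophil list was 8889 in the knockout and 11063 in the wild type, and that of the monocyte list 2842 in the knockout and 2280 in the wild type. Mpo made up 3665 of the neutrophil sum in the knockout and 5498 in the wild type (-0.57). Elane was at -0.48, Camp at -0.26, S100a9 at -0.08, S100a8 at -0.03 and Ltf at 0.11. In the monocyte list 4 of 7 detected genes were past 1.5-fold, against 3.85% of all detected genes. Csf1r (1.40), Irf8 (0.77) and Itgam (0.62) were higher and Cd74 (-0.66) was lower. Csf1r made up 770 of the monocyte sum in the knockout and 294 in the wild type. Lyz2 made up 1139 of it in the knockout and 1151 in the wild type. For T and NK markers, 3 of 5 lay above the floor and 0 above the 75th percentile. Of 7 measured B and lymphoid markers 6 were higher in the knockout as deposited, and Pax5 had the same value of 37.2 on both arrays. Without centring, 5241 of all detected genes were higher and 5929 lower. By brightest probe set 5 of the 7 lay above the floor on both arrays, while Ebf1 and Rag1 were under it in the wild type. Past 2-fold were 2 of the 7, Il7r (1.33) and Dntt (1.31), against 0.664% of all detected genes. The B and lymphoid markers summed to 5984 in the knockout and 2560 in the wild type. Of these sums Dntt, a gene of lymphoid priming, made up 5492 in the knockout and 2228 in the wild type. Megakaryocyte and platelet markers summed to 572 in the knockout and 825 in the wild type. Of their 4 detected genes 4 were lower, with a median of -0.55, where 5716 of the 11440 detected genes were lower. Pf4 (-0.77) and Vwf (-0.66) were past 1.5-fold, against 3.85% of all detected genes. Erythroid markers summed to 232 in the knockout and 303 in the wild type. Of their 4 detected genes 3 were lower, with a median of -0.33, where 5716 of the 11440 detected genes were lower. Gata1 (-0.84) was the 1 past 1.5-fold, against 3.85% of all detected genes, and Slc4a1 (0.49) was the 1 higher. The part of such cells in the values of p38 pathway genes was not tested.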

How the data were processed

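The authors deposited a linear intensity for each probe set on each of the 2 arrays, which was used as given. MAS5 is the only program named, per the submitters' processing notes, with no version. Labelling was with Cy3, per the labels. Of 45037 probe sets, 5.63% held the same value on both arrays and a further 3.19% differed by a multiple of 0.5 (within 5e-07), among them Map2k6 and both probe sets of Mapkapk3, so how the numbers were made is not settled. No detection call was used.

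Probe sets were named by the platform annotation, with symbols updated through the RefSeq gene table (34741 of 34945 matched). Values were taken to log2 and centred on the median difference of detected gene probe sets (-0.01 removed). Values under the floor were then set to it, and the brightest probe set stood for a gene (Python 3.11.15, pandas 2.3.3, statsmodels 0.14.6 for loess). With 1 array per group there is no test or error between animals. The SD between probe sets pooled genes with at least 2 probe sets above the floor on both arrays, and the number of arrays limits the precision. Thresholds were 2-fold and 1.5-fold. The method was tested on simulated data. The simulated differences were larger than any of the members' and lay in bright genes only, so small differences and dim genes were not covered. Named were all members, the 3 detected genes of each pathway list with the largest difference, and Ppm1d. Il6, Csf2, Map3k14, Pabpc1, Cxcl1 and the marker genes were named after their values had been looked at. The members and lists were chosen with earlier results of these data known. Listed genes without a probe set of their own were not analysed here. Alternatives covered centring, normalization, floor, offset, probe set choice and class, and fold size.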

Additional observations from a re-analysis of the deposited data

How the results depend on the processing

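No paired analysis was possible because each genotype had 1 array, and no replicate could be left out. Over 10 alternatives, 0 members were past 2-fold in each. At a threshold of 0.32 on the log2 scale in place of 1.5-fold, 1 member passed, Mapk12, where 17.3% of all detected genes did; under each other alternative none passed 1.5-fold. With the _s_at, _x_at and _a_at probe sets left out, 5 members were detected in place of 8, because Map2k3, Map2k6 and the detected probe set of Mapk12 are of those classes. A floor at the 25th percentile gave 10 detected members, with Mapk11 at 0.07 and Mapk13 at 0.38, and one at the 75th percentile gave 6. The median over detected members ran from -0.03 to 0.08, positive under 4 alternatives and negative under 6. Between 2 and 6 members were higher in the knockout, so the split of directions depends on the setting. Differences of Map3k5 (0.18 to 0.22), Map2k6 (0.23 to 0.27) and Mapk12 (0.23 to 0.37) were positive, and those of Mapkapk2 (-0.17 to -0.12) and Map2k3 (-0.09 to -0.01) negative, under every alternative that measured them. Those of Mapk14, Map2k4 and Mapkapk3 changed sign. Medians of the related lists kept their sign without centring and after quantile normalization and loess, while Dusp10 passed 1.5-fold without centring (-0.59) and after loess (-0.59). Values close to the floor, those of Mapk12 among them, are the least certain.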
